A study of Mus musculus with 67 samples.

Results

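Egr1, Egr2 and Egr3 and the Klf genes Klf2, Klf4, Klf5, Klf6, Klf9 and Klf10 were described in single cells cultured from mouse aorta. These 9 genes of the early growth response and Krüppel-like zinc finger families were chosen by name, out of 39179 genes measured. The study sequenced smooth muscle cells of arteries, known as VSMCs, from the descending aorta of male C57Bl6 mice aged 3 to 4 months. There were 45 cells at passage 2 and 22 cells at passage 1. All were grown in DMEM with serum at 10% and antibiotics. Passage 1 cells had been left alone for 5 days after isolation, and passage 2 cells came from passage 1 cells that were detached with trypsin and plated again. The labels name no transgene or drug. Each cell was captured on a Fluidigm C1 instrument and gave 1 library. The labels name no animal or culture, so all cells of a passage count as 1 sample. No p-value was therefore computed, an SD over cells describes cells and not replicates, and passage cannot be told apart from the set of libraries it was sequenced in.

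Egr genes are immediate early genes. Serum, growth factors and mechanical injury switch them on within minutes, without new protein synthesis. These stimuli act through serum response factor and its ETS partners at serum response elements. Egr proteins bind GC-rich sites, and the corepressors Nab1 and Nab2 restrain their activity. Klf proteins bind GC boxes and CACCC elements. In smooth muscle Klf4 is best known as a repressor of contractile genes after platelet-derived growth factor or injury, Klf5 as a factor of the embryonic and synthetic state, and Klf2 as the flow-induced factor of endothelium, where the Erk5 kinase and Mef2 factors drive it.

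Of the 9 genes, 5 had an entry in the RefSeq promoter table (build GRCm38.p6), Egr2, Klf2, Klf4, Klf6 and Klf9. Egr1, Egr3, Klf5 and Klf10 had none. The upstream stretches of 3 genes are shown because their letters hold elements through which the factors above are known to act. They end at the base before the RefSeq start for Egr2 and Klf4, and before the first exon base of the GENCODE M21 annotation for Klf2. Egr2 is the stretch before the third of its 5 listed starts, chr10:67537619-67537868 on the plus strand, with a CArG box (the core of a serum response element) and both TGACG cores of a cyclic AMP response element in capitals. Klf2 is chr8:72318812-72319032 on the plus strand, with 2 GC boxes (GGGCGG) and a Mef2 site in capitals. Klf4 is chr4:55532476-55532725 on the minus strand, with 4 GC boxes in capitals, of which the first pair shares a base.
Egr2: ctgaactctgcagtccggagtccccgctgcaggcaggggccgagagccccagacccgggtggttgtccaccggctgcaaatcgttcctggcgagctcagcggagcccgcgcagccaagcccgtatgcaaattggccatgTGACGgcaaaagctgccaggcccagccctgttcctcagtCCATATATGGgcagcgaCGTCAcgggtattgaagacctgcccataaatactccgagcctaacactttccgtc
Klf2: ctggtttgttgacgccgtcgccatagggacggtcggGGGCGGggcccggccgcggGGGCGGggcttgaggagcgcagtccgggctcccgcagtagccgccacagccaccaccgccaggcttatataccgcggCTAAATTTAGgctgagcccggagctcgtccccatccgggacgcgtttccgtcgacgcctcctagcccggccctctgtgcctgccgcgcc
Klf4: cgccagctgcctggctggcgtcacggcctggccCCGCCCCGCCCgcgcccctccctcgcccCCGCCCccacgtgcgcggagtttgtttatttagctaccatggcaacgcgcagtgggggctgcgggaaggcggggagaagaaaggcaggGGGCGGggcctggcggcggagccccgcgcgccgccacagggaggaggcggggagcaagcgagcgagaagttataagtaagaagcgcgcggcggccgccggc

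Motifs were searched on both strands in the 250 bases before each RefSeq start. The CArG box of Egr2 began 72 bases before the third listed start, and 1.47% of 32851 RefSeq promoters held such a box in the same window. The TGACG cores of Egr2 began 111 and 55 bases before that start, and 17.8% of promoters held that core. Before the first listed start of Egr2 neither element was found, and before the second the TGACG core was absent. The Mef2 site of Klf2 began 118 bases before its start, and 0.508% of promoters held a Mef2 consensus. GC boxes were common, in 32.7% of promoters. The longer Egr-type motif GCGGGGGCG was in 2.57% of promoters, and both Klf2 and Klf4 held it, beginning 199 and 194 bases before their starts and overlapping a GC box in each. The CACCC element was in 52.0% of promoters and in none of the Klf4 letters searched. A match describes letters and was not tested as a binding site.

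Reads per cell ranged from 548419 to 1509589 at passage 2 (median 885194) and from 817021 to 1561129 at passage 1 (median 1227270). Values are reads divided by 1 size factor per cell, so a value of 10 is roughly 10 reads in a cell of typical depth. A cell was checked for 10 smooth muscle markers, and 44 of 45 at passage 2 and 15 of 22 at passage 1 had 3 or more of them at 10 or above. At least 3 of 10 endothelial markers did so in 2 passage 2 cells and 5 passage 1 cells, called endothelial marker cells here. Mki67 or Top2a, genes of dividing cells, reached 10 in 10 passage 2 cells and 16 passage 1 cells, called cycling cells. The part of these cells in a difference between passages was not tested apart from the values given with them left out. Of 10 lymphocyte genes, which such cultures should lack, the highest was Lck. It reached 10 in 4 passage 2 cells (8.89%) and 2 passage 1 cells (9.09%). Lck is the upper end of that list, since 8 of the 10 had no read at passage 2 and 7 had none at passage 1.

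**Figure D1:**
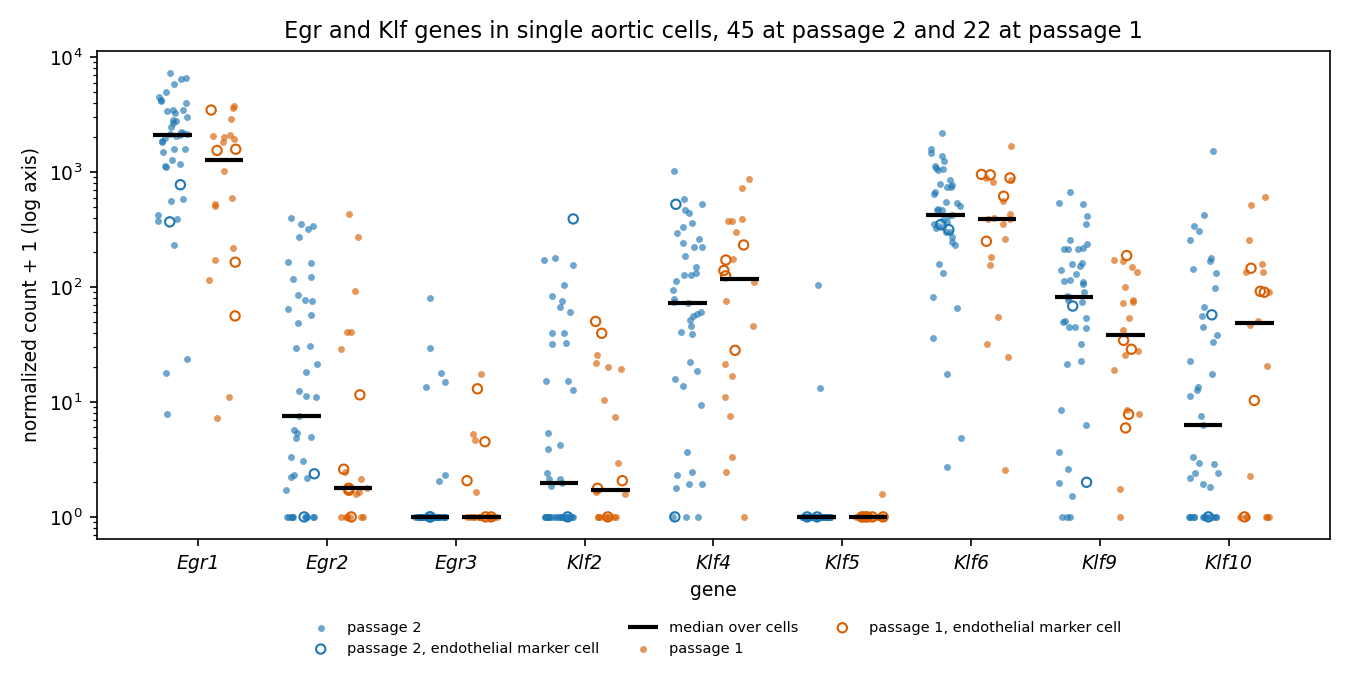
Normalized count plus 1 on a log axis for each of the 9 genes, with 1 point per cell, passage 2 left of passage 1; black lines are medians over cells and open circles are endothelial marker cells. Egr1 lies highest in both passages, with medians of 2109 at passage 2 and 1281 at passage 1, and most genes spread over orders of magnitude within a passage.

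Egr1, the founding immediate early factor of the family, was read in every cell. It is ENSMUSG00000038418 on chromosome 18, 34859823 to 34864984, plus strand (GRCm38, GENCODE M21, as for all positions below). Its lowest, median and highest values were 6.93, 2109 and 7268 in passage 2 cells, against 6.25, 1281 and 3755 in passage 1 cells. The mean was 2369 ± 1843 at passage 2 (SD, n = 45 cells) and 1367 ± 1246 at passage 1 (SD, n = 22 cells), a log2 ratio of 0.79 on the log2(mean + 1) scale used throughout. The passages overlapped over most of their range: in 67.1% of all pairs of a passage 2 and a passage 1 cell the passage 2 cell was higher. A few cells had almost none, with values of 6.93 and 16.8 in the lowest pair of passage 2 cells. Without cycling cells, 35 at passage 2 and 6 at passage 1, the means were 2512 and 2177 and the log2 ratio 0.21.

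Egr2, a factor known from hindbrain and Schwann cell development that is also serum-induced, varied widely from cell to cell. The gene (ENSMUSG00000037868) spans chromosome 10, 67535475 to 67542188, plus strand. Lowest, median and highest values were 0, 6.50 and 400 in passage 2 cells, against 0, 0.778 and 427 in passage 1 cells. At passage 2, 22 of 45 cells had 10 or more, which is 48.9% with an exact 95% interval from 33.7 to 64.2. At passage 1, 7 of 22 had, which is 31.8% with an interval from 13.9 to 54.9, so the intervals overlapped. Such intervals cover counting error only. The means were 62.4 ± 108 at passage 2 and 41.5 ± 104 at passage 1 (SD over 45 and 22 cells), a log2 ratio of 0.58. At passage 1, 3 cells held 86.3% of the summed value and cell 5 alone held 46.7%; without that cell the log2 ratio was 1.39. Cells 5 and 7 of passage 1 were not cycling, and without cycling cells the ratio took the other sign, -0.70. Every cell with Egr2 at 10 had Egr1 of at least 563 at passage 2 and at least 523 at passage 1, levels that 37 of all 45 passage 2 cells and 14 of all 22 passage 1 cells reached.

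Egr3, which in lymphocytes and neurons follows the same stimuli as Egr1, reached 10 in few cells. It lies on chromosome 14, 70077203 to 70082614, plus strand (ENSMUSG00000033730). It did so in 5 passage 2 cells and 2 passage 1 cells, shares of 11.1% and 9.09%. Lck, the highest lymphocyte gene, had 8.89% and 9.09%. Its highest values were 79.4 in passage 2 cells and 16.5 in passage 1 cells. Egr3 did not pass the filter for ratios. Its log2 ratio of 0.61 became -0.11 without passage 2 cell 6, which held the highest Egr1 and the highest Egr3 of that passage.

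Klf6, a GC-box activator induced after vessel injury, was the most widely read Klf gene and differed little between passages. Its position is chromosome 13, 5861482 to 5870394, plus strand (ENSMUSG00000000078). Lowest, median and highest values were 1.72, 422 and 2187 in passage 2 cells, against 1.56, 393 and 1682 in passage 1 cells. Values of 10 or more were found in 43 of the 45 cells of passage 2 and 21 of the 22 of passage 1. The means were 574 ± 474 and 505 ± 417 (SD over 45 passage 2 and 22 passage 1 cells), a log2 ratio of 0.18, with the passage 2 cell higher in 52.8% of pairs. Its summed reads as a share of all reads were 1.01 times as high at passage 2 as at passage 1 (0.993 to 1.03, exact binomial interval). That interval covers the counting error of pooled reads only, and neither the spread of cells nor that of cultures.

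Klf4 lay on chromosome 4, 55527143 to 55532466, minus strand (ENSMUSG00000003032). Lowest, median and highest values were 0, 71.7 and 1025 in passage 2 cells, against 0, 117 and 863 in passage 1 cells. At passage 2, 34 of 45 cells had 10 or more (75.6%, interval 60.5 to 87.1) and 19 had 100 or more. At passage 1 these were 18 of 22 (81.8%, interval 59.7 to 94.8) and 12. Klf4 was thus present in most cells of both passages, with no read in 4 passage 2 cells and 1 passage 1 cell. The means were 157 ± 211 at passage 2 and 190 ± 236 at passage 1 (SD over 45 and 22 cells), a log2 ratio of -0.27. The difference was far inside the spread of cells: the passage 1 cell was higher in 54.95% of pairs. With single cells left out the ratio ran from -0.47, without passage 2 cell 42, to -0.01, without passage 1 cell 20. It was -0.70 for medians over cells, -0.51 for the mean of log2 values and 0.17 without the 25% of cells with the fewest genes. Without endothelial marker cells the ratio of means was -0.43, and the medians were 71.7 at passage 2 and 74.6 at passage 1.

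Klf9, a factor induced by glucocorticoid and thyroid hormones, was higher at passage 2. It lies on chromosome 19, 23141226 to 23168134, plus strand (ENSMUSG00000033863). Lowest, median and highest values were 0, 81.3 and 671 in passage 2 cells, against 0, 37.2 and 187 in passage 1 cells. The means were 130 ± 155 and 62.5 ± 61.6 (SD over 45 passage 2 and 22 passage 1 cells), a log2 ratio of 1.05, and the passage 2 cell was higher in 61.2% of pairs. A value of 100 was reached by 20 passage 2 cells and 5 passage 1 cells. The log2 ratio ran from 0.91 to 1.19 whichever cell was left out. Over passage 2 cells Klf9 was lower where Mki67 was higher (Spearman rho = -0.45, n = 45 cells), while over passage 1 cells the rho was 0.17 (n = 22 cells). Without cycling cells the log2 ratio was 0.95.

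Klf10, first described as a gene induced early by transforming growth factor beta, gave means that depended on single cells. The gene (ENSMUSG00000037465) spans chromosome 15, 38291463 to 38300706, minus strand. Lowest, median and highest values were 0, 5.35 and 1524 in passage 2 cells, against 0, 47.9 and 606 in passage 1 cells. At passage 2, 21 of 45 cells had 10 or more (46.7%, interval 31.7 to 62.1), and at passage 1, 13 of 22 had (59.1%, interval 36.4 to 79.3). The means were 87.7 ± 241 and 106 ± 163 (SD over 45 passage 2 and 22 passage 1 cells), a log2 ratio of -0.28. Passage 2 cell 18 held 38.6% of the sum of its passage, and without it the ratio was -0.94. Without passage 1 cell 7, which held the highest value of that passage, it took the other sign, 0.085. The ratio of medians over cells was -2.95 on the log2(value + 1) scale, but a read was found in like shares of cells, 68.9% at passage 2 and 68.2% at passage 1. Klf10 also went down with reads per cell at passage 2 (rho = -0.41, n = 45 cells).

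Klf2 gave the highest mean ratio of the 7 genes that passed the filter. It lies on chromosome 8, 72319033 to 72321656, plus strand (ENSMUSG00000055148). Lowest, median and highest values were 0, 0.980 and 390 in passage 2 cells, against 0, 0.704 and 49.1 in passage 1 cells. The medians were thus below 1 in both passages, and the difference sat in the upper cells: 5 passage 2 cells and 0 passage 1 cells reached 100. At passage 2, 16 of 45 cells had 10 or more (35.6%, interval 21.9 to 51.2), and at passage 1, 6 of 22 had (27.3%, interval 10.7 to 50.2). The passage 2 cell was higher in 43.7% of pairs, the passage 1 cell in 37.2%. The means were 32.8 ± 71.5 and 8.70 ± 13.995 (SD over 45 passage 2 and 22 passage 1 cells), a log2 ratio of 1.80. The highest value at passage 2, in cell 11, was that of an endothelial marker cell, and the highest values at passage 1, 49.1 in cell 11 and 38.6 in cell 13, were those of endothelial marker cells too. These cells carried Pecam1, an endothelial adhesion molecule, at 311 in passage 1 cell 11 and 833 in passage 1 cell 13, and summed endothelial marker values reached 7319 at passage 2 and 6151 at passage 1 against medians over cells of 14.6 and 11.05. All 10 endothelial markers had a read somewhere in each passage. Without all endothelial marker cells the Klf2 log2 ratio was 1.91, with means of 25.3 over 43 passage 2 cells and 5.997 over 17 passage 1 cells, and without passage 2 cell 11 alone it was 1.40. Under the summaries that weigh the highest cells less it was 0.55 for the mean of log2 values and 0.22 for medians over cells.

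Klf5, the activator of synthetic smooth muscle genes, was almost absent. It lies on chromosome 14, 99298691 to 99315036, plus strand (ENSMUSG00000005148). At passage 2 it had 103 in cell 40 and 12.2 in cell 7 and no read elsewhere, against 1 read in 1 cell at passage 1. Shares at 10 were 4.44% of passage 2 cells and 0% of passage 1 cells, below those of Lck, the highest lymphocyte gene. For 0 of 22 cells the exact 95% interval reaches 15.4%. Cell 40 held 89.5% of the summed value of passage 2. Summed reads were 164 at passage 2 and 1 at passage 1, a ratio per total reads of 105 with an interval of 18.5 to 4162, and these reads came from 2 cells.

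Ratios between passages were read against the 8682 genes whose mean reached 10 in either passage, provided that 25% or more of the cells there had a read. Of those, 14.4% were higher at passage 2 past 2-fold, 19.4% lower and 33.9% either, and the median log2 ratio was -0.11. Egr3 and Klf5 did not pass this filter. Among the 7 genes that did, Klf2 and Klf9 were higher past 2-fold and 0 were lower, so 2 of 7 lay past the fold, which is near the background share. The median log2 ratio was 0.58 over these 7 and 0.61 over all 9. Of the 7, 5 were above 0, beside 45.3% of all filtered genes. Which genes were past the fold depended on the summary. The mean of log2 values over cells put Egr1 (1.24) and Egr2 (1.22) past it in place of Klf2 (0.55) and Klf9 (0.63). Medians over cells put Egr2 (2.08) and Klf9 (1.11) past it on the higher side and Klf10 (-2.95) on the lower, with Klf2 at 0.22. Over all genes these summaries had medians of -0.62 and -0.60. Klf9 lay close to 2-fold and was also inside it without cycling cells, without the 25% of cells with the fewest genes, or with a pseudocount of 10.

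**Figure D2:**
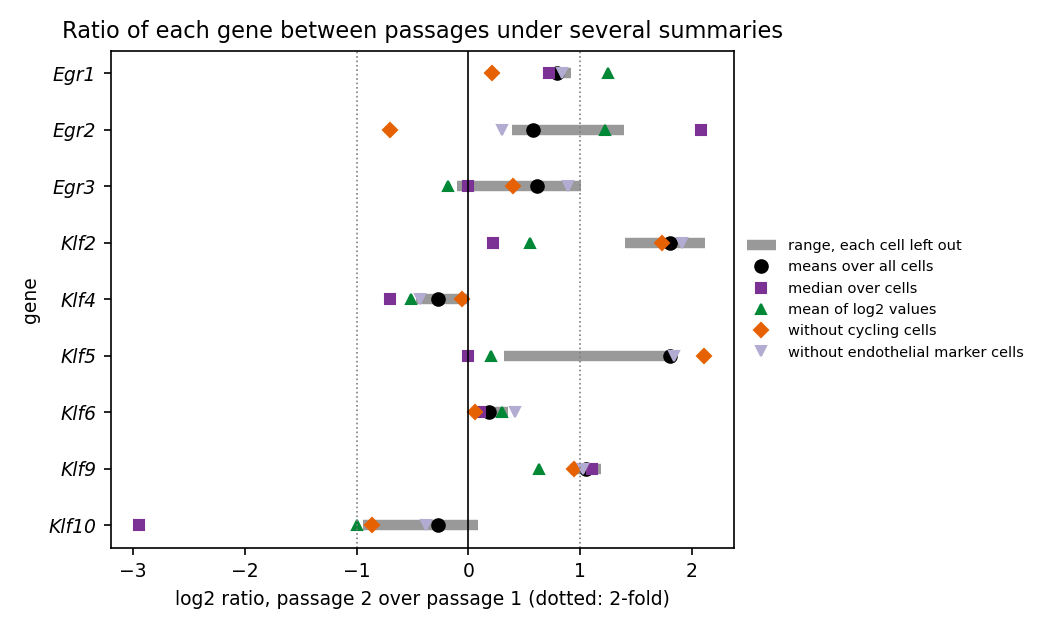
Log2 ratio of passage 2 over passage 1 for each gene, from means over all cells (black), with each cell left out in turn (grey bar) and under other summaries or without some cells (coloured marks); dotted lines mark 2-fold. Egr1, Klf2, Klf6 and Klf9 stay right of 0 under every mark shown, Klf4 lies left of it under those marks, and Egr2, Egr3, Klf5 and Klf10 run over wide ranges.

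Levels of different genes were compared per kb of exon. At passage 2 the medians per kb ran Egr1 470, Klf6 96.02, Klf4 23.5, Klf9 16.9, Egr2 1.91, Klf10 1.28 and Klf2 0.531, with Egr3 and Klf5 at 0. At passage 1 the order was Egr1 286, Klf6 89.4, Klf4 38.4, Klf10 11.5, Klf9 7.73, Klf2 0.381 and Egr2 0.229, again with Egr3 and Klf5 at 0. Egr1, Klf6 and Klf4 thus led in both passages, and the order of Klf9, Klf10, Egr2 and Klf2 below them differed between passages. The interquartile ranges of neighbouring genes overlapped throughout at passage 1. At passage 2 they overlapped except between Egr1 and Klf6.

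A cell carried a median of 5 of the 9 genes at a value of 10 in both passages. The highest counts were 7 genes in 6 passage 2 cells and 8 genes in 1 passage 1 cell. High cells recurred across genes. Passage 2 cell 42 held the highest Klf4 (1025) and the highest Klf9 (671) of its passage, and passage 2 cell 18 held the highest Klf10 (1524) and the second highest Klf6 (1577) and Klf9 (535). At passage 1, cell 20 held the highest Klf4 (863) and Klf6 (1682), and cells 5 and 7 held the highest pair of Egr1 values (3755 and 3568) and of Egr2 values (427 and 269). Klf2 and Klf4 replace each other in part in endothelium. Of the cells with Klf2 at 10, 15 of 16 at passage 2 and 6 of 6 at passage 1 also had Klf4 at 10, beside 34 of all 45 passage 2 cells and 18 of all 22 passage 1 cells.

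Correlation over the cells of a passage described how the 7 filtered genes varied together. The points share a library set, a passage and a normalization, and differ in depth, and no p was computed. At passage 2 the 21 pairs had a median Spearman rho of 0.14 (-0.14 to 0.42, n = 45 cells), with 18 above 0 and 3 over 0.4, against 0.664% of all pairs of filtered genes over 0.4. At passage 1 the median was 0.39 (0.14 to 0.77, n = 22 cells), with all 21 above 0 and 10 over 0.4, against 5.28% of all pairs. Correlations from 22 cells scatter more widely than those from 45, as these background shares show. Over all pairs of filtered genes the median rho was 0.02 at passage 2 and 0.04 at passage 1. The share of all pairs above 0 was not counted.

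**Figure D3:**
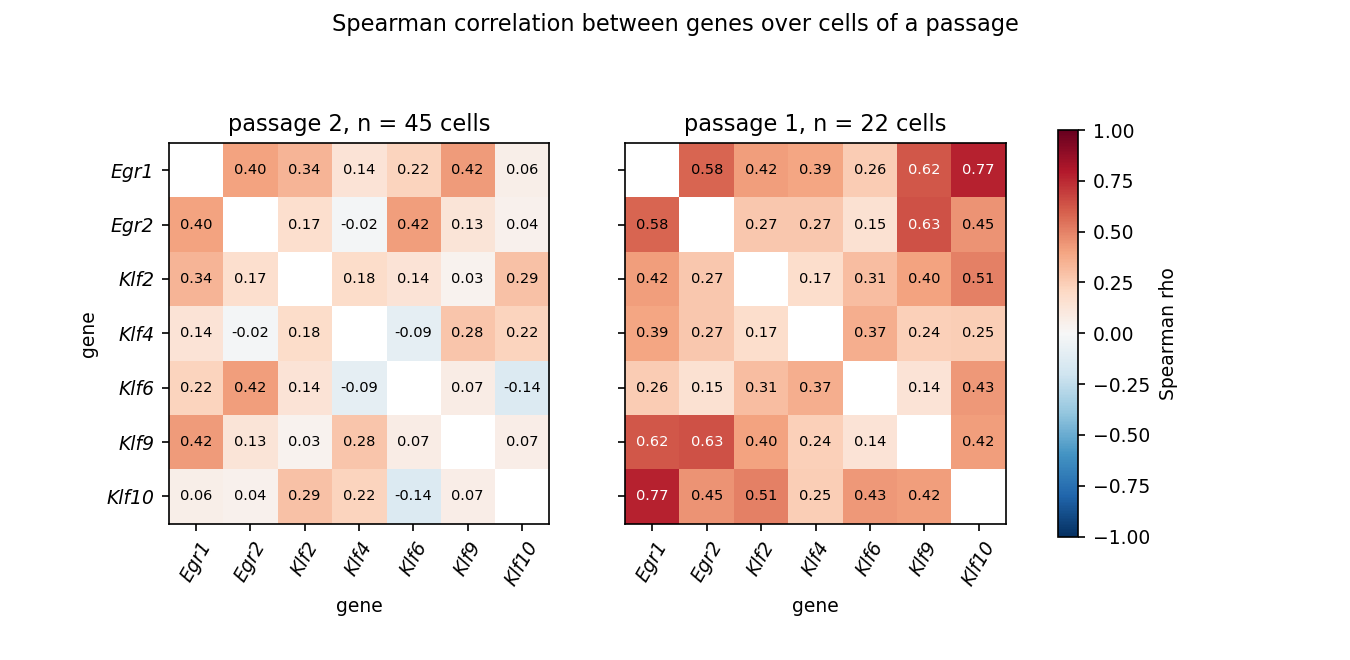
Spearman rho between the 7 filtered genes over cells, passage 2 on the left (45 cells) and passage 1 on the right (22 cells); red is positive and blue negative. Egr1 with Klf10 gives 0.06 at passage 2 and 0.77 at passage 1, and Egr1 with Egr2 gives 0.40 and 0.58.

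Egr1 was in 2 of the 3 pairs over 0.4 at passage 2. Egr1 and Egr2 gave a rho of 0.40 over passage 2 cells and 0.58 over passage 1 cells. Egr1 and Klf9 gave 0.42 at passage 2 and 0.62 at passage 1. Egr1 and Klf10 gave 0.06 at passage 2 and 0.77 at passage 1, from 0.01 to 0.10 and from 0.74 to 0.80 whichever cell was left out. Without cycling cells that pair gave -0.22 over 35 passage 2 cells. Egr2 and Klf6 went the other way, with 0.42 at passage 2 and 0.15 at passage 1. Klf2 and Klf4 gave 0.18 at passage 2 and 0.17 at passage 1. Whether any pair differs between passages was not tested.

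Among 5687 genes read in at least 50% of cells of each passage, the gene most like Egr1 over cells was Fos, the partner of Jun in the AP-1 factor, with a rho of 0.60 at passage 2 and 0.87 at passage 1. Fos itself averaged 764 ± 630 at passage 2 and 333 ± 427 at passage 1 (SD over 45 and 22 cells). The next were Ppp1r15a, a stress-response phosphatase subunit, Zfp36, which destabilizes messages with AU-rich elements, Id1, an inhibitor of basic helix-loop-helix factors, and Btg2, an antiproliferative gene, with means of both rho values of 0.66, 0.62, 0.59 and 0.58. Klf9 ranked 17 and Egr2 ranked 23 in this order. The 5 genes most like Klf4 were Tmbim1, Chd1, Gm15283, Mir99ahg and Nfia, with means of both rho values of 0.46 to 0.49. Egr1 ranked 330 for Klf4 and Klf2 ranked 1048.

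The study gives the contractile genes special interest, since it also measured contractility of single cells, and Klf4 is the member known to repress them. The contractile score of a cell was the mean of log2(value + 1) over the 17 of 20 listed genes that passed the filter; Des, Pln and Kcnmb1 did not. Its lowest, median and highest values were 2.68, 4.92 and 7.83 in passage 2 cells, against 1.48, 3.15 and 6.89 in passage 1 cells. Klf4 had a rho with the score near 0 at passage 2 (Spearman rho = -0.01, n = 45 cells) and a weak negative one at passage 1 (rho = -0.29, n = 22 cells). At passage 1, 15.4% of filtered genes had a lower rho with the score, so a value of this size was not rare. Leaving out single cells gave -0.07 to 0.05 at passage 2 and -0.40 to -0.18 at passage 1. Klf4 also went with reads per cell at passage 1 (rho = 0.34), and given reads per cell the rho with the score was -0.22.

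**Figure D4:**
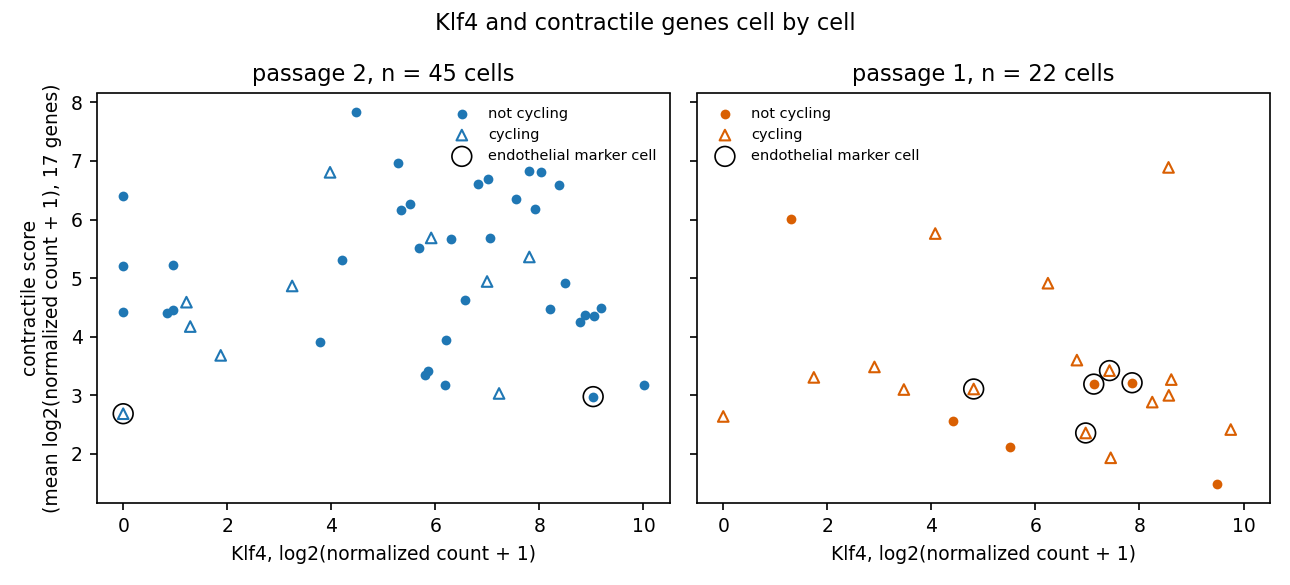
Contractile score against Klf4 for each cell, both on log2 scales, passage 2 on the left (45 cells) and passage 1 on the right (22 cells); triangles are cycling cells and ringed points endothelial marker cells. The passage 2 points show no slope (rho = -0.01), and at passage 1 (rho = -0.29) the highest-scoring cell, cell 9, has Klf4 at 376.

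Single cells went both ways. Of the 3 cells with the highest Klf4 in the study, passage 2 cell 42 had a score of 3.17, passage 1 cell 20 a score of 2.41 and passage 1 cell 5 a score of 1.48, the lowest of all 67 cells. All 3 lay below the median score of their passage. In passage 1 cell 9, by contrast, Klf4 was 376, the score was 6.89 and the smooth muscle actin gene Acta2 was 4826, the highest of its passage. In passage 2 cell 24 there was no Klf4 read and Acta2 was 17576. In passage 2 cell 41 there was no Klf4 read either, and Acta2 was 350.

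**Figure D5:**
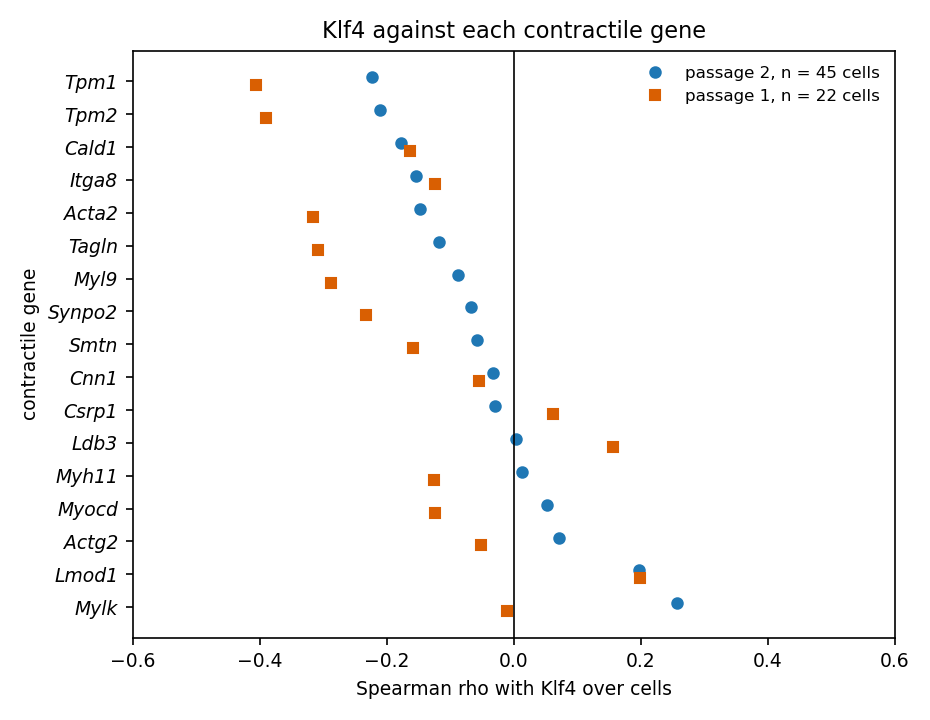
Spearman rho of Klf4 with each of the 17 contractile genes over cells, circles for passage 2 (45 cells) and squares for passage 1 (22 cells). Tpm1 has the lowest rho in both passages, -0.22 and -0.41, and Mylk at passage 2 and Lmod1 at passage 1 the highest.

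Gene by gene, Klf4 had a negative rho with 11 of 17 contractile genes at passage 2 (median -0.06) and 14 of 17 at passage 1 (median -0.12). Over all filtered genes, 42.1% of rho values with Klf4 were negative at passage 2 and 38.1% at passage 1. The contractile genes are correlated with each other, so these counts are not independent observations. The lowest was Tpm1, a tropomyosin of the thin filament, with -0.22 at passage 2 and -0.41 at passage 1. Acta2 gave -0.15 at passage 2 and -0.32 at passage 1. The highest were Mylk, the kinase of myosin light chain, with 0.26 at passage 2, and Lmod1, an actin nucleator of smooth muscle, with 0.20 at passage 1. When the list was summed before taking the log, which lets Acta2 and the other abundant genes lead, the rho was -0.21 at passage 2 and -0.38 at passage 1.

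Klf4 was not the member furthest from 0 with the score at passage 1. Egr2 had -0.40, Egr1 -0.38, Klf10 -0.32, Klf2 -0.30 and Klf9 -0.23 over the 22 cells, and Klf6 had 0.12. At passage 2 the highest were Klf6 with 0.24 and Egr1 with 0.14 over the 45 cells. Both passages put Klf6 on the positive side, and Egr1 stood on opposite sides of 0. Over all filtered genes the 5th and 95th percentiles of such rho values were -0.42 and 0.33 at passage 1. At passage 2 they were -0.23 and 0.30. Every value named here lay between them, so values of this size were not rare.

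The contractile genes were mostly higher at passage 2: of 17 that passed the filter, 11 were higher past 2-fold and 1 lower, with a median log2 ratio of 1.604 against -0.11 over all genes. Over all filtered genes 14.4% were higher past 2-fold and 19.4% lower. Itga8, an integrin of smooth muscle, had the highest ratio, 3.18, with means of 240 ± 279 at passage 2 and 25.7 ± 70.1 at passage 1 (SD over 45 and 22 cells). Cnn1, the actin-binding calponin, had 2.47 and Acta2 2.27. Cnn1 reached 10 in only 8 passage 2 cells and 2 passage 1 cells. Actg2, the enteric smooth muscle actin, was the gene lower past 2-fold, at -1.33, and reached 10 in only 4 passage 2 cells and 3 passage 1 cells. These lists were drawn up with earlier results of the same data known, so their directions are descriptions.

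The immediate early partners of the Egr genes were higher as well over all cells, cycling cells included. Of 19 that passed the filter, 14 were higher past 2-fold and 0 lower, with a median log2 ratio of 1.59. The shares over all filtered genes were 14.4% higher and 19.4% lower. Btg2 averaged 1816 ± 1385 at passage 2 and 278 ± 457 at passage 1 (SD over 45 and 22 cells), a log2 ratio of 2.70. Dusp1, a phosphatase that shuts off MAP kinases, had a log2 ratio of 2.37 and Ccn1, a matrix protein gene controlled by serum response factor, 1.13. Nr4a2, an orphan nuclear receptor, and Fosl1, an AP-1 subunit, had -0.11 and -0.04. The ratio of Egr1 over all cells, 0.79, was thus lower than the median of its partners. Without cycling cells Egr1 had 0.21, and no such value is given here for the partners. For Fos, with a log2 ratio of 1.20 over all cells, the highest passage 1 values were in cells that were not cycling. They were 1346 in cell 7, 1273 in cell 11 and 1057 in cell 5. The mean log2 level of these partners in a cell served as a score. At passage 2 Egr1 had a rho of 0.51 with it, Klf4 0.42, Klf2 0.39, Egr2 0.36, Klf10 0.36, Klf6 0.26 and Klf9 0.21 (n = 45 cells). Over all filtered genes the 95th percentile of such rho values was 0.29 at passage 2, and Klf6 and Klf9 lay under it. At passage 1 Egr2 had 0.75, Egr1 0.73, Klf9 0.66, Klf10 0.65, Klf2 0.48, Klf4 0.37 and Klf6 0.33 (n = 22 cells). The same percentile was 0.45 at passage 1, and Klf4 and Klf6 lay under it. Immediate early genes are also switched on by handling and detachment of cells, and the part of handling was not tested. Of 6 heat shock genes that passed the filter, Hspb1, a small chaperone, was higher past 2-fold with 2.72 and 0 were lower, and Hspa8 had -0.74.

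Of 21 genes known to act on the Egr and Klf genes that passed the filter, 2 were higher and 2 lower past 2-fold, with a median log2 ratio of -0.15. Among all filtered genes 14.4% were higher and 19.4% lower. With medians over cells 2 were higher and 10 lower, with the mean of log2 values 2 and 8, and without cycling cells 7 and 2. The shares of all filtered genes moved as well. They were 7.39% higher and 39.8% lower with medians over cells, and 6.66% and 35.1% with the mean of log2 values. Without cycling cells they were 24.7% and 20.4%. Mef2c, a Mef2 factor, averaged 253 ± 356 at passage 2 and 44.5 ± 57.0 at passage 1 (SD over 45 and 22 cells), a log2 ratio of 2.48, and Mef2d had 1.55. Mapk7, which encodes the kinase Erk5, had -1.33, with low means of 4.02 at passage 2 and 11.6 at passage 1. It reached 10 in only 6 passage 2 cells and 8 passage 1 cells. Pdgfra, a receptor of platelet-derived growth factor, had -1.17. Pdgfrb, its sister receptor, had 0.37 and Nr3c1, the glucocorticoid receptor, -0.60. Srf, which encodes serum response factor, had 0.38, and the Egr corepressors Nab1 and Nab2 had -0.34 and 0.35. The 10 genes of the Egr, Klf and Sp families that did not pass the filter included Egr4, Klf11 and Klf15. Of the other 6, 0 were past 2-fold in either direction, against 3 higher without cycling cells and 2 lower with medians over cells: Klf13 had 0.68, Klf16 0.95, Klf3 0.34 and Sp1 -0.18.

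Genes reported elsewhere as targets of these factors gave 6 of 11 higher past 2-fold and 0 lower, with a median log2 ratio of 1.15. All filtered genes together gave 14.4% higher and 19.4% lower. Per1, a clock gene, had 2.04, Smad7, an inhibitor of transforming growth factor beta signalling, 1.62 and Myh10, a non-muscle myosin, 1.51. Per1 rested on few cells, with 10 or more in 7 passage 2 cells and 2 passage 1 cells. F3, which encodes tissue factor, had -0.58 and Thbd, thrombomodulin, -0.36. Genes of modulated smooth muscle, the state in which Klf4 is often discussed, gave 3 higher and 2 lower of 9, with a median of 0.23. Medians over cells gave 1 higher and 6 lower, and the mean of log2 values 2 higher and 5 lower. Over all filtered genes these summaries put 7.39% and 6.66% higher, and 39.8% and 35.1% lower. Fn1, fibronectin, had 1.13 and Col3a1, a collagen, 1.09, while Vcam1, an adhesion molecule, had -1.35. Spp1, osteopontin, was lower by the most, with a log2 ratio of -4.34 and means of 54.98 ± 260 at passage 2 and 1130 ± 2026 at passage 1 (SD over 45 and 22 cells).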

How the data were processed

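RNA was sequenced from 67 single cells of cultured aorta. The deposited table holds signal values, the read count of each of 39179 genes after scaling of every cell by the authors. BWA, SAMtools, HTSeq and DESeq with GRCm38 are listed, per the submitters' processing notes. Handling of strand and of multi-mapping reads is not given in the sources used here, so close paralogs such as Acta2 and Actg2 are uncertain. In GENCODE M21 the exons of the 9 Egr and Klf genes overlap 0 exons of other genes.

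Read counts were recovered from the deposited signal by dividing the values of each cell by its lowest value above 0. Of 509576 nonzero values, 100% came out whole to within 0.001. No count test was run on them, because each passage is 1 sample. A gene was kept where its mean reached 10 in either passage and 25% or more of the cells there had a read. Ratios compare log2(mean + 1), which understates differences of low genes. Cells were compared without a caller for doublets. Intervals at 95% are exact, Clopper-Pearson for shares and binomial for ratios of summed reads. Depth per cell is in the report, and thinning used 500000 reads. Genes named were the 9 members, the listed genes with the highest mean and with the highest and lowest ratios, the genes closest to Klf4 and Egr1 over cells, and set regulators. Members and lists were chosen with earlier results of these data known. Individual cells and the co-occurrence counts were picked after their values were seen. The work used edgeR 4.0.16 in R 4.3.3 for TMM factors, and scipy 1.17.1, numpy 2.4.6, pandas 2.3.3 and matplotlib 3.10.9 in Python 3.11.15 for the rest.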

Additional observations from a re-analysis of the deposited data

How the results depend on the processing

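No paired analysis was possible because the cells carry no number that links passages, and each passage is 1 sample. The count of 2 of 7 genes past 2-fold was 1 with a pseudocount of 10, without cycling cells or without the 25% of cells with the fewest genes. With a filter of a mean of 50 and 50% of cells it was 1 of the 6 genes kept, since Klf2 did not pass. It was 4 without endothelial and cycling cells together, which left 34 and 4 cells, and 1 to 3 with each cell left out. The rho of Klf4 with the contractile score at passage 2 was 0.064 by Pearson (0.053 without the 2 cells farthest from the Klf4 median), 0.022 on reads scaled to the cell total, 0.040 after thinning, -0.21 with the list summed and -0.15 without cycling cells, and -0.073 to 0.053 with each cell left out. At passage 1 it was -0.49 without cycling cells (6 cells), -0.14 by Pearson without the 2 farthest cells, and -0.40 to -0.18 with each cell left out. With endothelial and cycling cells both left out, 4 passage 1 cells remained, too few for a correlation. Removal of both kinds of cell together and the Pearson value without 2 cells were chosen after seeing the data. The median over all filtered genes, -0.11, was -0.002 with TMM factors, -0.18 on reads scaled to the cell total and -0.60 for medians over cells. Of the results beside these 3 (single genes, lists and pairs), 57 settings moved a value and 1240 did not. A single gene moved when its ratio changed by the SD over cells or more, and a list when its count changed past a set factor. A pair moved with a change of more than 0.1 or of sign. Most of these settings left out 1 cell, and the SD over cells is wide, so the counts are no measure of stability. After thinning to 500000 reads, Egr3 was still read in 6 passage 2 cells and 5 passage 1 cells, against 7 and 7 before.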

Other observations

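A few cells had almost none of the 9 genes. In passage 2 cells 13 and 15, both cycling, 1 gene reached a value of 10, and Egr1 was 6.93 and 16.8. In passage 1 cell 21 none of the 9 did, and Egr1 was 6.25. Passage 2 cells 13 and 15 had 1242749 and 1509589 reads, and passage 1 cell 21 had 817021, the fewest of its passage. These 3 cells had the fewest genes with a read of all 67, 4163, 4754 and 4017, against medians of 7257 at passage 2 and 8477.5 at passage 1, and the part of this in their low values was not tested. In the same 3 cells Fos was 2.67, 12.03 and 0, while Acta2 was 893, 2894 and 307. The endothelial marker cells differed among themselves in Klf2: it was 390 in passage 2 cell 11 and 0 in passage 2 cell 8, although Cdh5, the endothelial cadherin gene, was 766 in passage 2 cell 8.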
